A study of Homo sapiens with 4 samples.

Results

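A set of 10 genes of the smooth muscle and myofibroblast contractile apparatus, out of the 31907 gene names listed in at least 1 library, were followed in HGC-27 cells, an established human gastric cancer line. They are defined by name, as genes whose products build or regulate the actin and myosin filaments of smooth muscle, and the rule uses no count. The genes, like the lists used below, were however chosen with earlier results of these data known. In order of role they are the actins ACTA2 and ACTG2, the tropomyosins TPM1 and TPM2, the actin-binding proteins TAGLN, CNN1, CALD1 and LMOD1, and the myosin regulators MYL9 and MYLK. The cells had been treated for 48 h either with PBS, the vehicle, or with recombinant IL-17B (rIL-17B) at 200 ng/ml, and each treatment had 2 RNA-seq libraries, named replicate 1 and replicate 2 in the labels. The comparison asks which transcripts differ after the cytokine, in a study of IL-17B and its receptor IL-17RB in gastric cancer stemness. The library protocol in the labels speaks of monocytes, whereas each sample is labelled HGC-27. The labels do not say whether the replicates of a group were separate cultures, so that the p-values below measure only the spread between these libraries.

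Contraction of smooth muscle rests on actin filaments that slide along myosin once the regulatory light chain of myosin is phosphorylated by a calcium- and calmodulin-dependent kinase. Fibroblasts that turn into myofibroblasts, for instance in a wound or around a tumour, take up several of the same proteins. Transcription of most of these genes is driven by serum response factor (SRF), which binds a short element called the CArG box and works with the coactivators myocardin (MYOCD) and the myocardin-related factors MRTFA and MRTFB. TPM1, CALD1 and MYLK also give rise to isoforms that non-muscle cells use, and counts per gene name pool the isoforms.

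The CArG box is the element that SRF binds, and the windows in which a search found it are shown for that reason. RefSeq windows of 250 bases upstream of a transcription start (GRCh38.p14, the genome also called hg38) were given for 8 of the 10 genes, 13 windows in all, and for neither TAGLN nor MYL9. A CArG box is a pair of C, 6 bases that are each A or T, and a pair of G, a class that reads the same on both strands. It was found in 2 of the 8 genes, against 1.44% of the 27305 genes with a window, and in 2 of the 13 windows, against 1.16% of 35116. ACTG2 held 2 boxes, at positions -110 and -73 counted from the start, and 2 or more boxes occurred in 0.0313% of all windows. MYLK held 1, at position -94 of a start that lies inside the gene, 10499 bases from its 3′ end, where the short product telokin is known to begin. A second search, chosen after the windows had been seen, allowed 1 G or C among the 6 central bases. It found 2 such near-boxes in the inner of the 2 ACTA2 windows, at -121 and -71, and 1 in a CALD1 window. At least 1 near-box stood in 5.96% of all windows and 2 or more in 0.493%. The ACTG2 sequence is chr2:73892758-73892944 on the plus strand, the upstream window up to the end of its second box. The ACTA2 sequence is chr10:88952774-88953023 on the minus strand, and for MYLK the 30 bases around the box are given, chr3:123620623-123620652 on the minus strand. Capitals mark the boxes in ACTG2 and MYLK and the near-boxes in ACTA2, each line running 5′ to 3′.
ACTG2: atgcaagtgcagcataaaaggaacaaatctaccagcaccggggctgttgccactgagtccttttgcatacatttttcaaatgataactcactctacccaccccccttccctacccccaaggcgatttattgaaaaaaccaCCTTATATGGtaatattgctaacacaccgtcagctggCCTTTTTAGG
MYLK: ataaaccatcCCTTTTATGGgagttgaagc
ACTA2: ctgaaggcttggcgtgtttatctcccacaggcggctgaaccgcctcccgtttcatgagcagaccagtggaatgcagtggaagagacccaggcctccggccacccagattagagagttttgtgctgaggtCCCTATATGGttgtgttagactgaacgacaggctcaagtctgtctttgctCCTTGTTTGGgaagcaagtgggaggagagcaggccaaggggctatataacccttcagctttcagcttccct
A match describes the letters of the window. No binding of a factor was measured in these cells.

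One of the 4 libraries stood apart, and this bears on the results that follow. The labels do not say whether it came from the same culture as the others, so that treatment and any other difference of that library cannot be told apart in its values. A chi-square comparison of counts over genes, divided by its degrees of freedom, gave 3.66 between the 2 PBS libraries and 139 between the 2 rIL-17B libraries. Replicate 1 of rIL-17B listed 24346 entries, against 27035 to 27614 in the other libraries, and 8874 names were at 0 in it, against 5691 to 6275. Library totals lay between 12888029 and 17555879 counts, so that 3 counts corresponded to between 0.171 and 0.233 CPM, the count after scaling the library total to 1000000. Values are therefore given for each rIL-17B library separately, and those of a few genes for replicate 1 only. A log2 ratio in the text is that of one rIL-17B library to the PBS mean, on CPM with 0.5 CPM added, whereas a log2 fold change is the group difference fitted by edgeR across all genes. On the ratio scale the median of all 16361 genes that passed the filter on low counts stood at 0.08 for rIL-17B replicate 1 and at 0.00 for the other one.

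Every one of the 10 contractile genes had a lower CPM in each rIL-17B library than in each PBS library. The difference was very unequal between the 2 rIL-17B libraries. In replicate 1 the genes stood at between 0% and 62.1% of the PBS mean, and in replicate 2 at between 62.1% and 94.9%. Their CPM summed to 4532 and 4389 in the PBS libraries, 1321 in rIL-17B replicate 1 and 3967 in replicate 2. Groups that did not overlap, with rIL-17B lower, were found for 10 of 10 members and for 27.5% of all genes tested, while 31.5% of all genes were higher in both rIL-17B libraries. Tested by edgeR with Benjamini-Hochberg adjustment over all 16361 genes, 0 of the 10 members and 0 genes (0%) had an adjusted p under 0.05. At an unadjusted p under 0.05 there were 0 members and 226 genes. All 10 members passed the filter on low counts.

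**Figure D1:**
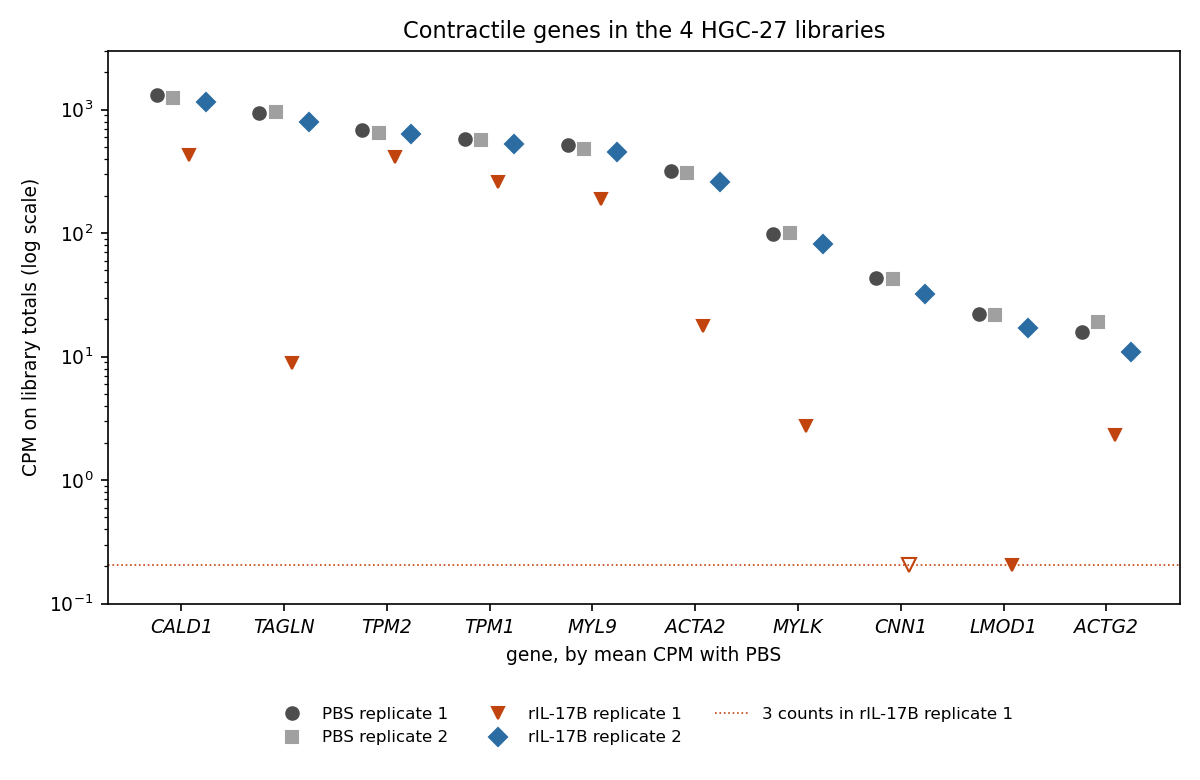
CPM of the 10 contractile genes in each of the 4 libraries (y axis, log scale), with genes ordered by their mean CPM with PBS and 1 point per library. The dotted line marks 3 counts in rIL-17B replicate 1, and the open triangle on it is CNN1, which had 0 counts there. For each gene rIL-17B replicate 2 lies under both PBS libraries, and rIL-17B replicate 1 lies lowest throughout.

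ACTA2, on chromosome 10 (chr10:88935074-88991339, ENSG00000107796.13), encodes the α-actin of vascular smooth muscle, the usual marker of myofibroblasts. It was measured at 316.5 and 308.5 CPM with PBS, at 17.7 CPM in rIL-17B replicate 1 and at 262 CPM in replicate 2. The PBS libraries lay close together, whereas the first rIL-17B library was 17.7-fold under their mean and the other 1.19-fold. The fitted log2 fold change was -1.17 (SE 1.33, adjusted p = 0.7002 by edgeR with Benjamini-Hochberg adjustment). ACTG2, on chromosome 2 (chr2:73892314-73919865, ENSG00000163017.13), encodes the γ-actin of the muscle wall of gut and other hollow organs. Its level was 15.8 and 19.2 CPM with PBS, 2.33 CPM in rIL-17B replicate 1 and 10.9 CPM in replicate 2. ACTG2 was the member furthest below PBS in replicate 2, at 62.1% of the PBS mean, and it was also the member on which the 2 PBS libraries differed most, by 1.22-fold. Its log2 fold change was -1.43 (SE 0.86, edgeR adjusted p = 0.661).

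TPM1 and TPM2 encode tropomyosins, coiled coils that lie along the actin filament and gate the access of myosin. TPM1 (chr15:63042632-63071915, ENSG00000140416.20) was at 574 and 566 CPM with PBS, 257 CPM in rIL-17B replicate 1 and 527 CPM in replicate 2. TPM2 (chr9:35681992-35690121, ENSG00000198467.14) was at 689 and 650 CPM with PBS, 415.5 CPM in rIL-17B replicate 1 and 635 CPM in replicate 2. In replicate 1 the tropomyosins were thus 2.22-fold and 1.61-fold under the PBS mean, and TPM2 was the 1 member of 10 that was less than 2-fold lower there. In replicate 2 both came close to PBS, TPM1 at 92.4% and TPM2 at 94.9% of its mean. Their log2 fold changes were -0.59 (SE 0.44) and -0.41 (SE 0.30), both with an edgeR adjusted p of 0.661.

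TAGLN, CNN1, CALD1 and LMOD1 bind actin filaments. TAGLN (chr11:117199321-117204782, ENSG00000149591.16) encodes transgelin, also called SM22α, an actin-crosslinking protein that appears early in smooth muscle. It was measured at 934 and 958 CPM with PBS and at 799 CPM in rIL-17B replicate 2, whereas replicate 1 had 8.83 CPM, from 129 counts against 14848 and 12352. That library was 107-fold under the PBS mean and replicate 2 was 1.18-fold under it. CNN1 (chr19:11538717-11550323, ENSG00000130176.7) encodes calponin 1, which binds actin and inhibits the ATPase of myosin, and is a marker of differentiated smooth muscle. It had 695 and 549 counts with PBS, 0 in rIL-17B replicate 1 and 569 in replicate 2, equal to 43.7, 42.6, 0 and 32.4 CPM. Set against the limit of 3 counts that a count of 0 allows in that library, CNN1 was at least 210-fold lower there than the PBS mean, and it was 1.33-fold lower in replicate 2. The log2 fold changes were -1.23 (SE 1.94, edgeR adjusted p = 0.755) for TAGLN and -1.42 (SE 2.15, edgeR adjusted p = 0.749) for CNN1. With SEs above the fold changes themselves, neither difference between groups exceeded the spread between the 2 rIL-17B libraries.

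CALD1 (chr7:134744252-134970728, ENSG00000122786.19) encodes caldesmon, which binds actin, tropomyosin and myosin. It had the highest CPM of the members, 1321 and 1238 with PBS, 428 in rIL-17B replicate 1 and 1148 in replicate 2. Relative to the PBS mean this was 33.5% in replicate 1 and 89.8% in replicate 2. Its log2 fold change was -0.74 (SE 0.58, edgeR adjusted p = 0.662). LMOD1 (chr1:201896452-201946588, ENSG00000163431.12) encodes leiomodin 1, a nucleator of actin filaments in smooth muscle. It had 354 and 280 counts with PBS, 3 in rIL-17B replicate 1 and 297 in replicate 2, equal to 22.3, 21.7, 0.205 and 16.9 CPM. With so few counts the ratio in replicate 1 is loose: it was 107-fold lower than the PBS mean, with an exact Poisson 95% interval from 36.7-fold to 520-fold that covers the counting error of these 3 counts only. The log2 fold change of LMOD1 was -1.37 (SE 1.79, edgeR adjusted p = 0.725).

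MYL9 and MYLK act on myosin itself. MYL9 (chr20:36541484-36551447, ENSG00000101335.9) encodes the regulatory light chain of smooth muscle myosin, whose phosphorylation starts contraction. Its level was 518 and 483.5 CPM with PBS, 189 CPM in rIL-17B replicate 1 and 454 CPM in replicate 2. MYLK (chr3:123610049-123884331, ENSG00000065534.18) encodes myosin light chain kinase, the enzyme that adds this phosphate. Its level was 98.5 and 100.8 CPM with PBS, 2.74 CPM in rIL-17B replicate 1 and 81.3 CPM in replicate 2. The substrate and its kinase therefore kept unequal shares of their PBS level in replicate 1, 37.7% for MYL9 and 2.75% for MYLK, and lay closer in replicate 2, at 90.7% and 81.6%. Their log2 fold changes were -0.68 (SE 0.52, edgeR adjusted p = 0.661) and -1.25 (SE 1.56, edgeR adjusted p = 0.716).

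Among themselves the members spread widely in rIL-17B replicate 1. TPM2, TPM1, MYL9 and CALD1 kept between 33.5% and 62.1% of the PBS mean in that library, ACTG2 kept 13.3% and ACTA2 5.65%, and MYLK, TAGLN, LMOD1 and CNN1 were at 2.75% or less. In replicate 2 the same 4 genes TPM2, TPM1, MYL9 and CALD1 stood at 89.8% to 94.9% and the other 6 members at 62.1% to 84.5%. Both sets of percentages were computed against the same 2 PBS libraries and are set side by side only. By log2 ratio the member median was -3.39 in replicate 1, where 9 of 10 members and 18.6% of all genes were at least 2-fold lower, and 2.61% of all genes were at least 2-fold higher. In replicate 2 it was -0.25, and 0 of 10 members and 0.575% of all genes were at least 2-fold lower. The median fitted log2 fold change was -1.20 over the members and -0.03 over all genes tested.

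Leaving out the library that stood apart reduced the size of the differences and narrowed their errors. The remaining rIL-17B library had no replicate, and edgeR then took its spread to be that of the PBS pair. On that assumption 394 of 17103 genes (2.3%) were lower and 110 (0.643%) higher at an adjusted p under 0.05, and 2 of the 10 members were among the lower ones. These were ACTG2, with a log2 fold change of -0.68 (SE 0.17, edgeR adjusted p = 0.00574), and CNN1, with -0.42 (SE 0.12, edgeR adjusted p = 0.0210). TAGLN (-0.25, edgeR adjusted p = 0.0575), MYLK (-0.30, edgeR adjusted p = 0.0589) and ACTA2 (-0.26, edgeR adjusted p = 0.0662) lay on the other side of the threshold. LMOD1, CALD1, MYL9, TPM1 and TPM2 had log2 fold changes of -0.38, -0.16, -0.14, -0.12 and -0.08, with edgeR adjusted p-values of 0.169 to 0.744. Without rIL-17B replicate 2 instead, all 10 members were lower past the threshold, as were 5500 of 17223 genes (31.9%), with a member median of -3.66.

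Per kilobase of exon the contractile genes ranged from 4.50 to 242 CPM per kb with PBS. TAGLN was highest, followed by TPM2 with 206, MYL9 with 178, CALD1 with 130, ACTA2 with 105 and TPM1 with 44.3 CPM per kb. CNN1, at 15.0 CPM per kb, and LMOD1, ACTG2 and MYLK, at 5.54, 4.595 and 4.50 CPM per kb, formed the lower end. The ranges of the 2 PBS libraries overlapped for ACTG2 and MYLK alone among neighbours in this order. The order depended on the length used, since 3 of 10 genes kept their rank when the longest transcript replaced the joined exons, and the largest change was 2 ranks. In rIL-17B replicate 2 the order differed only in that ACTG2 came after MYLK. In rIL-17B replicate 1 TPM2 led with 128 CPM per kb, ahead of MYL9 with 66.9 and CALD1 with 43.5, while TAGLN came sixth with 2.25 CPM per kb and CNN1 last.

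Most of the contractile genes have relatives in a list made for comparison because non-muscle cells use many of them. That list held no relative of CALD1 or MYLK, and the MYLK relatives MYLK2 and MYLK3 are given with the myosin phosphorylation genes below. The cytoplasmic actins ACTB and ACTG1 exceeded both PBS libraries in each rIL-17B library, ACTB at 3246 and 3364 CPM with PBS, 4031 CPM in replicate 1 and 3494 CPM in replicate 2. For ACTG1 the values were 2928 and 2933 CPM with PBS, 3646 CPM in replicate 1 and 2992 CPM in replicate 2. Of the tropomyosins on that list, TPM3 was higher in both rIL-17B libraries, with log2 ratios of 0.43 and 0.14, whereas TPM4 had ratios of -0.53 and -0.03 and overlapped PBS. TAGLN2, the transgelin of non-muscle cells, had log2 ratios of 0.01 in replicate 1 and 0.07 in replicate 2, where TAGLN had -6.67 and -0.24. CNN2 had ratios of 0.01 and 0.10, and CNN3, the acidic calponin, was lower, with -0.92 and -0.13, where CNN1 had -6.45 and -0.41. The non-muscle regulatory light chains MYL12A and MYL12B had ratios of -0.29 and 0.35 in replicate 1 and of -0.04 and 0.06 in replicate 2. The essential light chain MYL6, shared by smooth muscle and other cells, had 0.03 and -0.05. Of the non-muscle myosin heavy chains, MYH9 was lower (-0.70 and -0.03) and MYH10 higher (0.49 and 0.10) in both rIL-17B libraries. TMOD3, a tropomodulin related to LMOD1, had ratios of 0.65 and 0.24.

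Over the whole list of 22 relatives, 19 were tested, of which 4 were lower and 8 higher without overlap, beside 27.5% and 31.5% of all genes, and the median log2 fold change was -0.01. The 4 lower ones were CNN3, MYH9, TMOD2 and the α-actinin ACTN1, which is named after its values were seen, at 464 CPM in both PBS libraries, 202 CPM in rIL-17B replicate 1 and 408.5 CPM in replicate 2. The 2 tested relatives with the largest fitted change were TMOD2, a mostly neuronal tropomodulin with log2 ratios of -3.23 and -0.51, and TAGLN3, which had at most 17 counts in a library. None of the relatives passed an adjusted p of 0.05 in edgeR with all libraries (0 of 19 at an unadjusted p under 0.05) or without rIL-17B replicate 1. FLNA, filamin A, and VCL, vinculin, which anchor actin at the membrane in most adherent cells, had log2 ratios of 0.07 and 0.19 in replicate 1 and of -0.01 and 0.09 in replicate 2.

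**Figure D2:**
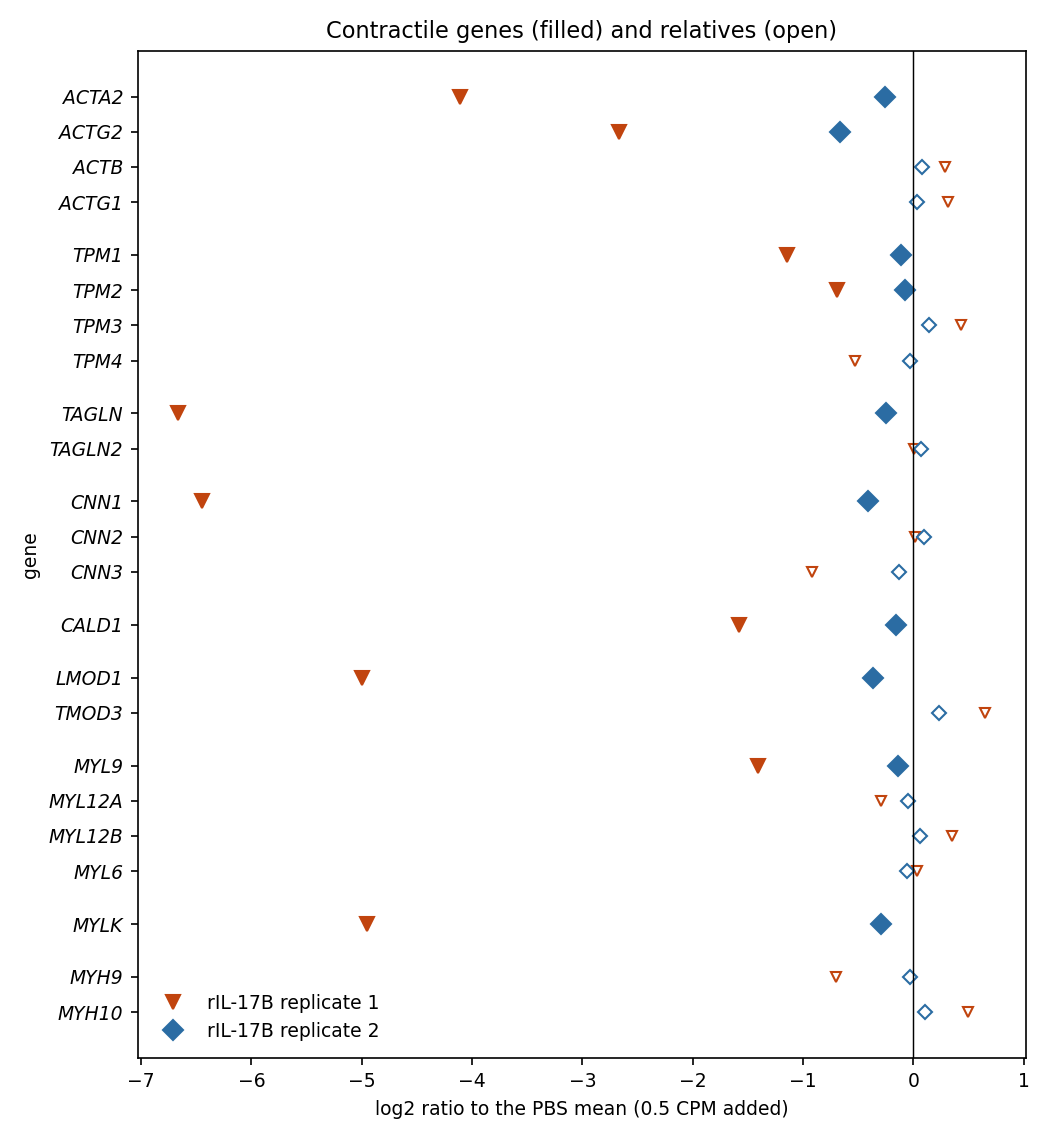
Log2 ratio of each rIL-17B library to the PBS mean (x axis, 0.5 CPM added) for the contractile genes (filled symbols) and their listed relatives (open symbols), grouped by protein family, with triangles for replicate 1 and diamonds for replicate 2. The contractile genes reach -6.67 (TAGLN) in replicate 1 and -0.66 (ACTG2) in replicate 2, while TAGLN2 and CNN2 lie near 0 in both.

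The share of the contractile genes within each family was computed next. Taken per kilobase of exon, ACTA2 and ACTG2 together made up 5.47% and 5.29% of the 6 actins with PBS, 0.273% in rIL-17B replicate 1 and 4.33% in replicate 2. CNN1 made up 9.97% and 10.04% of the 3 calponins with PBS, 0% in replicate 1 and 7.66% in replicate 2. TAGLN, at 49.9% and 51.0% of the transgelins with PBS, was about as abundant as TAGLN2, and it made up 0.940% in replicate 1 and 45.0% in replicate 2. MYL9 gave 55.7% and 54.8% of the 3 regulatory light chains with PBS, 28.5% in replicate 1 and 52.2% in replicate 2. TPM1 and TPM2 gave 61.4% of the 4 tropomyosins in both PBS libraries, 52.0% in replicate 1 and 59.7% in replicate 2. In all 5 families both rIL-17B shares lay under both PBS shares. These shares are within a library and do not depend on its total. ACTC1, the cardiac α-actin, made up 0.495% and 0.512% of the actins with PBS and 1.11% and 0.615% with rIL-17B, and so exceeded ACTA2 in replicate 1.

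**Figure D3:**
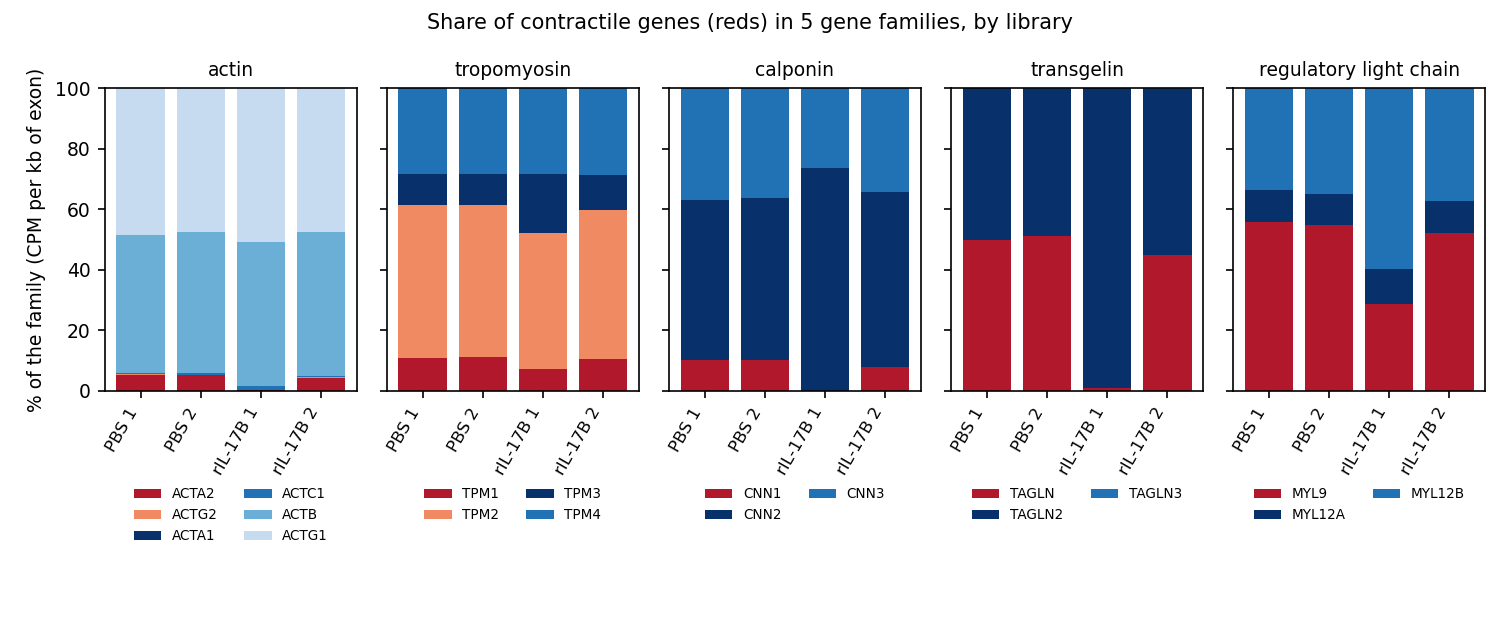
Share of each gene in 5 gene families (y axis, % of the family's summed CPM per kb of exon), with 1 bar per library and the contractile genes in reds. TAGLN fills about as much as TAGLN2 in 3 libraries and 0.940% in rIL-17B replicate 1, where CNN1 is at 0%; rIL-17B replicate 2 has slightly less red than PBS in each family.

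Of the markers of mature smooth muscle, MYH11 and DES were scarce in every library, and SMTN was at a level like those of LMOD1 and ACTG2 with PBS. MYH11, the smooth muscle myosin heavy chain, had 44 and 59 counts with PBS, 23 in rIL-17B replicate 1 and 51 in replicate 2, between 1.57 and 4.58 CPM. DES, encoding desmin, had 23 and 17 counts with PBS and 16 and 15 with rIL-17B. SMTN, encoding smoothelin but also used in non-muscle cells, had 26.4 and 27.4 CPM with PBS, 22.5 CPM in replicate 1 and 27.3 CPM in replicate 2. The groups did not overlap for DES, though by few counts, and they overlapped for MYH11 and SMTN. The skeletal muscle transcription factors MYOD1 and MYOG had 0 counts in all 4 libraries, where 3 counts would have been 0.171 to 0.233 CPM.

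In the wider list of 30 smooth muscle genes, 28 were tested, of which 15 were lower and 4 higher without overlap, against 27.5% and 31.5% of all genes. The median log2 fold change was -0.42, and the median log2 ratios were -0.48 in rIL-17B replicate 1 and -0.09 in replicate 2. None of the 28 passed an adjusted p of 0.05 in edgeR with all libraries, and 0 had an unadjusted p under 0.05. ITGA7, a laminin receptor of muscle, had the largest fitted change, with 19.1 and 29.7 CPM with PBS, 1.85 CPM in replicate 1 and 13.3 CPM in replicate 2. HSPB6, the small heat shock protein of relaxing smooth muscle, followed, with 95 and 109 counts with PBS, 4 in replicate 1 and 79 in replicate 2. Without rIL-17B replicate 1 the log2 fold change was -0.86 for ITGA7, and the median over the list was -0.12. It was -0.37 for the actin-associated synaptopodin 2 (SYNPO2), which is named because its adjusted p in that fit was seen.

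SRF and its coactivators, which act on the CArG box, were not lower with rIL-17B. SRF had 56.0 and 67.5 CPM with PBS, 71.5 CPM in rIL-17B replicate 1 and 60.9 CPM in replicate 2, and the groups overlapped. MRTFA and MRTFB were higher in both rIL-17B libraries, with log2 ratios of 0.33 and 0.62 in replicate 1 and of 0.04 and 0.09 in replicate 2. MYOCD, the coactivator that distinguishes smooth and cardiac muscle, had 23 and 19 counts with PBS and 41 and 48 with rIL-17B. It was thus higher in both rIL-17B libraries, by log2 ratios of 0.75 and 0.72, at a level of 1.45 to 2.81 CPM. Its fitted log2 fold change of 0.85 (SE 0.30) had an edgeR adjusted p of 0.661. The most abundant members of the list were TEAD1, FHL2 and WWTR1. TEAD1, a partner of YAP1, had log2 ratios of 0.15 and -0.03, and FHL2, a cofactor that binds SRF and MRTFs, had 0.07 and 0.03. WWTR1, the YAP1 paralog TAZ, had -0.62 and -0.30, and its log2 fold change without rIL-17B replicate 1 was -0.30. The mesenchymal factors TCF21 and PRRX1 had the largest fitted changes, TCF21 with 43, 36, 0 and 39 counts and PRRX1 with 567, 550, 10 and 563 counts, in the order PBS replicates 1 and 2 and rIL-17B replicates 1 and 2. Of 18 regulators tested, 5 were lower and 8 higher without overlap, beside 27.5% and 31.5% of all genes, the median log2 fold change was 0.00, and 0 passed the test (0 at an unadjusted p under 0.05).

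The machinery that switches myosin phosphorylation on and off was also listed. Of its 22 genes, all tested, 8 were lower and 10 higher without overlap, beside 27.5% and 31.5% of all genes, and the median log2 fold change was -0.04, with 0 past an adjusted p of 0.05 in edgeR and 0 at an unadjusted p under 0.05. The small GTPase RHOA, which restrains myosin phosphatase through its kinases, and the calmodulin gene CALM2 were the most abundant, and were higher in both rIL-17B libraries with log2 ratios of 0.38 and 0.32 in replicate 1 and of 0.09 and 0.13 in replicate 2. PPP1R14A, encoding CPI-17, a phosphatase inhibitor typical of smooth muscle, had 185 and 143 counts with PBS, 0 in rIL-17B replicate 1 and 168 in replicate 2. PRKG1, the cGMP-dependent kinase that relaxes smooth muscle, had 261, 219, 3 and 265 counts in the same order. Both had CPM lower than either PBS library in both rIL-17B libraries, in replicate 2 by log2 ratios of -0.24 and -0.14. MYLK2 and MYLK3, relatives of MYLK, are named after their values were seen. MYLK3 had 54.76 and 49.04 CPM with PBS, 112.9 CPM in rIL-17B replicate 1 and 59.98 CPM in replicate 2. It was higher without overlap, with log2 ratios of 1.11 in replicate 1 and 0.21 in replicate 2, where MYLK had -4.95 and -0.29. MYLK2 had at most 28 counts in a library, and its groups overlapped.

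A list of myofibroblast matrix genes differed in the same direction as the contractile genes. It also holds VIM, PDGFRB and FAP, whose products are proteins of the cell rather than of the matrix. All 14 listed genes were tested and 14 of 14 were lower without overlap, against 27.5% of all genes. Their summed level was 58570 to 59720 CPM with PBS, 1384 CPM in rIL-17B replicate 1 and 49970 CPM in replicate 2, and their median log2 ratios were -4.13 in replicate 1 and -0.24 in replicate 2. FN1, fibronectin, alone had 33130 and 32460 CPM with PBS, 149 CPM in replicate 1 and 27450 CPM in replicate 2. COL1A1, a chain of collagen I, was at 7263 and 7511 CPM with PBS, 205 CPM in replicate 1 and 6192 CPM in replicate 2. None of the 14 had an adjusted p under 0.05 in edgeR with all 4 libraries (0 at an unadjusted p under 0.05). Without rIL-17B replicate 1 their median log2 fold change was -0.24, beside -0.004 over all genes tested.

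Markers of other cell types were counted in the same way, and each count without overlap below stands beside 27.5% lower and 31.5% higher over all genes. Of 10 fibroblast markers, which share COL1A1, COL1A2, COL3A1 and FAP with the matrix list, 9 were lower and 1 higher without overlap. Their sum was 18320 to 18760 CPM with PBS, 521 CPM in rIL-17B replicate 1 and 15900 CPM in replicate 2. In replicate 1 COL1A2 had 16 counts, PDGFRA 1 and DPT 2, against 82503, 2113 and 47 in replicate 2. With PBS the counts were 87731 and 67635 for COL1A2, 2440 and 2116 for PDGFRA, and 57 and 88 for DPT. Of 10 tested pericyte and vascular muscle markers, which share PDGFRB with the matrix list, 7 were lower and 1 higher. The sum of all 11 listed ranged from 715 to 838.5 CPM over the 4 libraries, with most of it from MCAM in replicate 1. MCAM, the most abundant, had 333 and 325 CPM with PBS, 575 CPM in replicate 1 and 381 CPM in replicate 2. PDGFRB, the next, had 165.5 and 180 CPM with PBS, 34.1 CPM in replicate 1 and 150.5 CPM in replicate 2. In replicate 1, 7 of the 10 tested were at least 2-fold lower, beside 18.6% of all genes, and CD248 had 1 count and KCNJ8 0. In replicate 2 their counts were 672 and 23, and with PBS 773 and 730 for CD248 and 32 and 19 for KCNJ8. Of 8 tested epithelial markers 6 were higher and 1 lower. The sum of all 12 listed was 1000 to 1005 CPM with PBS, 2244 CPM in replicate 1 and 1259 CPM in replicate 2. Most of it came from KRT8 and KRT7, whereas KRT19 had 1 count in replicate 1. Of the epithelial markers that were not tested, CDH1 had 7 to 11 counts per library, and KRT20, ESRP1 and GRHL2 had at most 10. Of 6 tested monocyte markers 3 were lower and 1 higher. The sum of all 12 listed was 9.24 to 23.4 CPM over the libraries, and in replicate 1 FCER1G, ITGAM and PTPRC had 0 counts and CSF1R 119. Of 7 tested skeletal and cardiac markers 2 were lower and 2 higher, with 122.5 CPM of ACTC1, 21.0 CPM of TTN and 0 counts of MYH7 in replicate 1. In replicate 2 these were 59.35 CPM, 20.39 CPM and 20 counts. With PBS they were 46.09 and 48.42 CPM, 20.94 and 19.48 CPM, and 35 and 51 counts. In edgeR with all libraries 0 genes of these lists had an adjusted p under 0.05 (0 at an unadjusted p under 0.05). Without rIL-17B replicate 1 the median log2 fold change was -0.23 for the fibroblast, -0.26 for the pericyte and 0.27 for the epithelial markers. In that fit it was -0.21 for the monocyte and -0.15 for the skeletal and cardiac markers, beside -0.004 over all genes tested. The part of cell composition in the lower contractile transcripts was not tested, and in bulk RNA fewer cells of a type and less RNA per cell cannot be told apart.

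**Figure D4:**
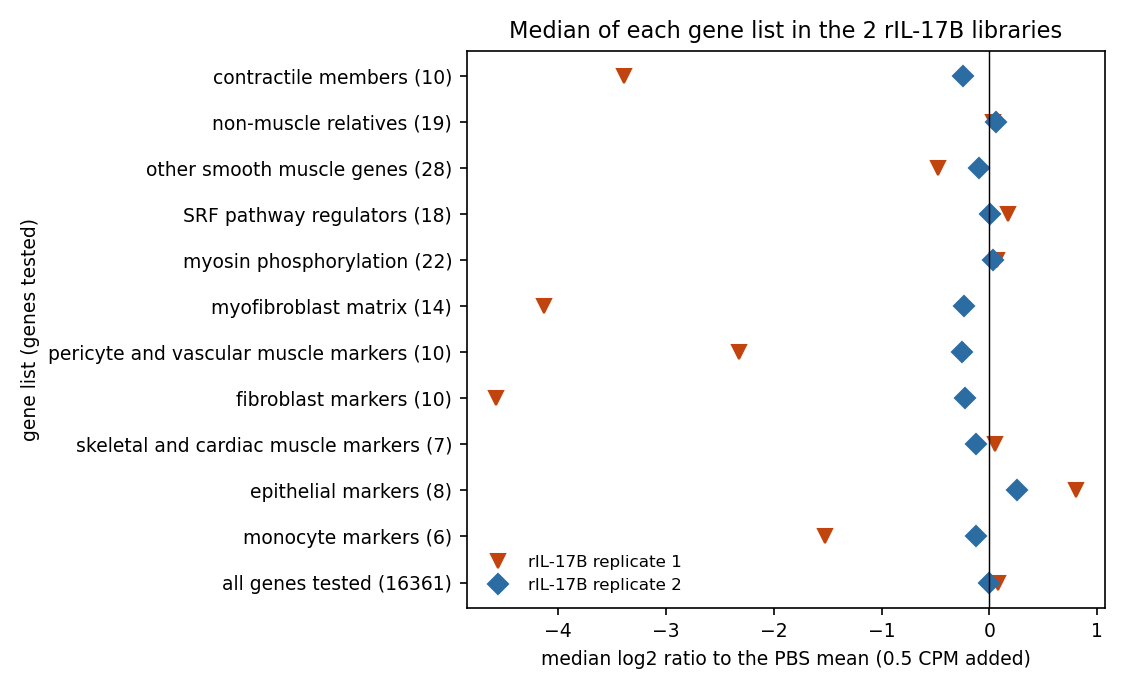
Median log2 ratio to the PBS mean (x axis, 0.5 CPM added) of each gene list and of all genes tested, with the number of genes tested in brackets, triangles for rIL-17B replicate 1 and diamonds for replicate 2. The contractile genes lie at -3.39 and -0.25, beside the fibroblast list (-4.58 and -0.22), the matrix list (-4.13 and -0.24) and the pericyte and vascular muscle list (-2.33 and -0.26), while all genes lie at 0.08 and 0.00.

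Genes outside the group with the most similar pattern were sought among all tested genes, as those whose log2 ratios differed least from the member median over the 4 libraries (root mean square). The 5 closest were CLDN5, TMEM246, WHAMMP3, TRPC4 and PKNOX2, at differences of 0.03 to 0.05 on the log2 scale. Their counts were low, with 85, 68, 1 and 80 for CLDN5, the claudin of endothelial junctions. They were highest for the pseudogene WHAMMP3, with 176, 129, 8 and 155. TRPC4, a calcium-permeable channel known from gut smooth muscle, had 75, 55, 0 and 65 counts. With 0 to 8 counts in rIL-17B replicate 1, the ratios of these 5 genes there depended strongly on the 0.5 CPM added. The member median of -3.39 in that library lay between the ratios of ACTG2 (-2.67) and ACTA2 (-4.11), and no member had that ratio.

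The identity of the counted reads bears on several members. How the counting treated strand is not given in the sources used here, and exons of ACTA2, TPM1, TAGLN, LMOD1 and MYLK overlap genes of the opposite strand in GENCODE 29. ACTA2 shares 17.3% of its exon bases with ACTA2-AS1 and 12.8% with FAS, TPM1 shares 16.1% with TPM1-AS, TAGLN 11.4% with PCSK7 and LMOD1 13.5% with AL513217.1. ACTA2-AS1 was counted at 45 and 42 with PBS, 1 in rIL-17B replicate 1 and 55 in replicate 2, and TPM1-AS at 59, 36, 4 and 61. FAS and PCSK7 had 452 and 716 counts in rIL-17B replicate 1, where ACTA2 and TAGLN had 258 and 129. For ACTG2, CNN1, CALD1, MYL9 and TPM2 no overlapping exon was found. Stretches of 50 bases shared with transcripts of another gene made up at most 1.03% of those of any member (TPM1), and 0.985% for MYLK, mostly shared with the pseudogene MYLKP1.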

How the data were processed

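RNA-seq libraries of HGC-27 cells were made by Smart-seq2 with oligo-dT priming and PCR, 2 with PBS and 2 with rIL-17B. The authors deposited counts, whole numbers of reads per gene name without normalization, in which genes at 0 are not listed and were set to 0. The submitters' processing notes name hg38, Bowtie2 2.2.3, HISAT2 2.1.0, TopHat2 and HTSeq 0.6.0 without their roles. The annotation, the use of strand and the treatment of shared reads are not given in the sources used here. Date-like names, 22 to 25 in a library (0.228% to 0.244% of counts), were left out, and 1 entry was kept of the 83 to 98 names listed more than once with equal counts.

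Groups were compared with edgeR 4.0.16 (R 4.3.3) by the quasi-likelihood test with TMM normalization and filterByExpr, p-values being adjusted over all 16361 genes tested. The script was tested on simulated data. CPM were computed on library totals, and 0.5 CPM was added for log2 ratios. Gene positions and exon lengths came from GENCODE 29 and promoter windows from RefSeq. Intervals and the limit of 3 counts cover counting error only, since PCR reads carried no molecular identifiers.

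The members and the 11 gene lists were chosen with earlier results of these data known. All 10 members are given in every library. The relatives ACTB, ACTG1, TPM3, TPM4, TAGLN2, CNN2, CNN3, MYL12A, MYL12B, MYL6, MYH9, MYH10 and TMOD3, SRF with its coactivators, MYH11, DES and SMTN are named whatever their values, the other listed genes by the 2 (for regulators 3) highest levels and the 2 largest fold changes of a list, and the most similar genes as the 5 with the smallest root mean square difference. One gene that this rule would name is not reported here. Alternatives were DESeq2 1.42.0, other normalizations and filters, a replicate block, summed names, other added values and leaving out each library.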

Additional observations from a re-analysis of the deposited data

How the results depend on the processing

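The group difference of the contractile genes rests on rIL-17B replicate 1. Leaving out each library in turn moved the number of genes past an adjusted p of 0.05 in edgeR between 0 and 9489, that of contractile genes between 0 and 10, and their median log2 fold change between -3.66 and -0.25. Without rIL-17B replicate 1, 504 genes passed, and without rIL-17B replicate 2, 9489, where the lone rIL-17B library was taken to vary like the PBS pair. The median log2 ratio in rIL-17B replicate 1, -3.39 with 0.5 CPM added, was -3.50 with 0.1 CPM, -3.27 with 1 CPM and -3.515 on TMM-normalized totals. In all 108 alternative fits of a single contractile gene its log2 fold change was below 0. These fits reused the same libraries, where the groups of every contractile gene were already apart with the cytokine side lower. The common sign was therefore largely given by those values and is no further test of the difference. DESeq2, upper-quartile scaling, library totals, no filter, a minimum of 10 counts and summed names all gave 0 genes past an adjusted p of 0.05, with 161 to 879 at an unadjusted p under 0.05. With a minimum of 10 counts in every library, CNN1 and LMOD1 were not tested.

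The labels number the replicates in both groups. Deviations from the group means of libraries with the same number correlated at 0.08 across genes. With 2 libraries a group, 1 of which stood apart, this cannot decide whether libraries of the same number were handled together. With a replicate block 0 genes and 0 contractile genes passed (173 genes at an unadjusted p under 0.05), and the median log2 fold change of the contractile genes was -2.05.

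With 2 libraries a group, an exact permutation test of a single gene could not give a p below 0.333. Genes of a few counts, such as MYOCD, DES and MYH11, are limited by depth.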
